A study of Meleagris gallopavo with 18 samples.

Results

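The epididymis of the turkey was compared with the ductus deferens over all loci of the gene count table, using 12 of the 18 libraries of the series. The comparison took every library that the labels assign to either duct and covered 56037 loci, of which 43125 had a count in at least 1 of the 12 libraries and 22695 had enough counts for a test. The 6 epididymides and the 6 ductus deferentia belonged to the same 6 male turkeys (birds 2, 11, 12, 14, 15 and 16), and each piece of tissue gave 1 library. The males were aged 38 weeks at sampling after photostimulation at 26 weeks with 14 h of light and 10 h of darkness, and no bird carried a treatment that another lacked. The 6 testes of the same birds are used here only as a level to set the ducts against. Libraries were made from polyA RNA of whole tissue pieces with a stranded kit, so fewer cells of a type and less RNA per cell cannot be told apart.

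The excurrent duct carries sperm from the testis to the cloaca. In birds the epididymis is a short organ pressed against the testis and consists largely of efferent ductules, whose epithelium holds ciliated cells, which stir the luminal fluid, and non-ciliated cells, which take up fluid and protein from it. The ductus deferens that follows is a long coiled tube with an epithelium without motile cilia and a wall of smooth muscle, in which sperm are stored. Motile cilia and the sperm tail share their axoneme, a ring of doublet microtubules moved by dynein arms, so that loci of the axoneme can be read from ciliated epithelium and from male germ cells alike.

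Most loci in the table carry identifiers of the merged transcript assembly (MSTRG numbers) without a gene symbol. Through the supplementary tables of the study, which set long non-coding RNAs beside candidate target genes, 83 loci could be paired with a symbol, and 82 of them were tested. Of the 83, 52 were taken from tables for the comparison of epididymis with ductus deferens. The study chose these 52 on the same libraries, so their directions are not independent evidence, and 47 of them were called higher and 3 lower here. The other 31 came from tables for comparisons with the testis. A count covers the whole merged locus, and the annotated transcripts that give a locus its symbol held at least 50% of its counts in 19 of the 83 loci, between 10% and 50% in 10 and under 10% in 54 (median 2.38%). Of the 49 named loci called higher, 31 were under 10% and 22 under 1%, among them DNAH7, DRC3, IQUB, RSPH3, RSPH9, KL, LGMN and CAT. Of the 3 called lower, 2 were under 1% (SLC15A1 and CORO1C). Only annotated transcripts present in the transcript counts entered these shares. ARMC4 had none there, so it was counted as under 1% although its share was not measured. A symbol therefore names a locus below, and the few cases in which the annotated transcript itself passed the test are pointed out.

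The epididymis of bird 12 stood apart from the other 5. It had 64456026 counts on 17596 loci, against 77356394 to 118625345 counts on 27459 to 34711 loci in the other epididymides and 64143451 to 100241426 counts on 21196 to 27526 loci in the ductus deferentia. Its 10 most abundant loci took 45.0% of its counts, against 19.2% to 28.2% in the other epididymides and 18.5% to 30.1% in the ductus deferentia, and a single locus without a symbol (MSTRG.50983) took 30.9%. The correlation of its loci with those of the other epididymides (log scale, across 22695 loci, which are not independent replicates) had a median of 0.779, against 0.958 to 0.965 for the other epididymides and 0.940 to 0.957 within the ductus deferens. Of 16688 tested loci with a median of at least 1 CPM (counts scaled to library size with TMM factors) in the other 5 epididymides, 4759 (28.5%) were below 10% of that median in bird 12 and 2945 (17.6%) had no count. For every other epididymis set against the remaining 4 without bird 12, the share below 10% was between 0.585% and 1.09%. The number of loci called is therefore given with and without this library.

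The labels of the tissues were set against marker lists as far as their genes could be matched to loci. The summed level of 7 of 8 markers of multiciliated cells was between 361 and 677 CPM in the epididymides, between 20.4 and 42.3 CPM in the ductus deferentia and between 555 and 860.4 CPM in the testes. For 4 of 5 markers of absorptive epithelium it was between 500.4 and 1299 CPM in the epididymides and between 15.5 and 41.7 CPM in the ductus deferentia, and for 4 of 6 markers of duct epithelium between 161 and 463 CPM in the epididymides and between 625 and 1363 CPM in the ductus deferentia. None of the 3 lists overlapped between the ducts, with or without bird 12. The study had listed all 7, all 4 and 2 of the 4 matched members of these lists for this comparison, on these libraries. The separation is therefore no independent check of the labels. These lists share members with the lists below, and no immune, Leydig or Sertoli cell marker could be matched.

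The mean number of loci with a count was 28438.5 ± 5961 (SD, n = 6) for epididymides, against 24970.2 ± 2251 (SD, n = 6) for ductus deferentia, higher in the epididymis in 5 of 6 birds, which did not pass a two-sided exact permutation test over the 64 sign changes of the birds (p = 0.219). Without bird 12 it was 30607 ± 3024 (SD, n = 5) for epididymides, against 25243 ± 2404 (SD, n = 5) for ductus deferentia, higher in 5 of 5 birds (exact permutation p = 0.0625, the smallest that 5 pairs allow). The number was not adjusted for total counts. These were higher in the epididymis in birds 2, 11 and 15 and lower in birds 12, 14 and 16.

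Most of the loci that differed between the ducts were higher in the epididymis. By edgeR's quasi-likelihood F-test, 1211 of the 22695 loci (5.34%) passed both limits used here, namely a Benjamini-Hochberg adjusted p under 0.01 together with a log2 fold change (epididymis over ductus deferens) beyond 1 in either direction. A locus past both limits is called higher or lower in the epididymis below. Higher in the epididymis were 957 loci (4.22%), and 254 (1.12%) were lower, so that 79.0% of the calls were higher. The median log2 fold change over all loci tested was 0.05. With the bird as a block, the fit for pairs of tissues from the same animal, the number called was 626 (2.76%), of which 487 (2.15%) were higher and 139 (0.612%) lower. Of the loci called without the block, 478 of those higher and 117 of those lower were also called with it.

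Without the epididymis of bird 12 the number called was larger in both directions. Of 24009 loci then tested, 2463 (10.3%) were called, 1817 higher (7.57%) and 646 lower (2.69%) in the epididymis. They included 950 of the 957 loci called higher with all libraries (99.3%) and 248 of the 254 called lower (97.6%), and none of the calls made with all libraries changed its sign. With the bird as a block and without this library, 1623 loci (6.76%) were called, 1138 of them higher (4.74%) and 485 lower (2.02%). The share of calls that were higher in the epididymis was 73.8% without the library and 70.1% without it and with the block. It moved to 87.1% when the library was left out and the libraries were scaled by their total counts alone in place of TMM (2164 higher and 321 lower), a scaling under which the median log2 fold change of all loci tested was 0.30 in place of 0.06.

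**Figure D1:**
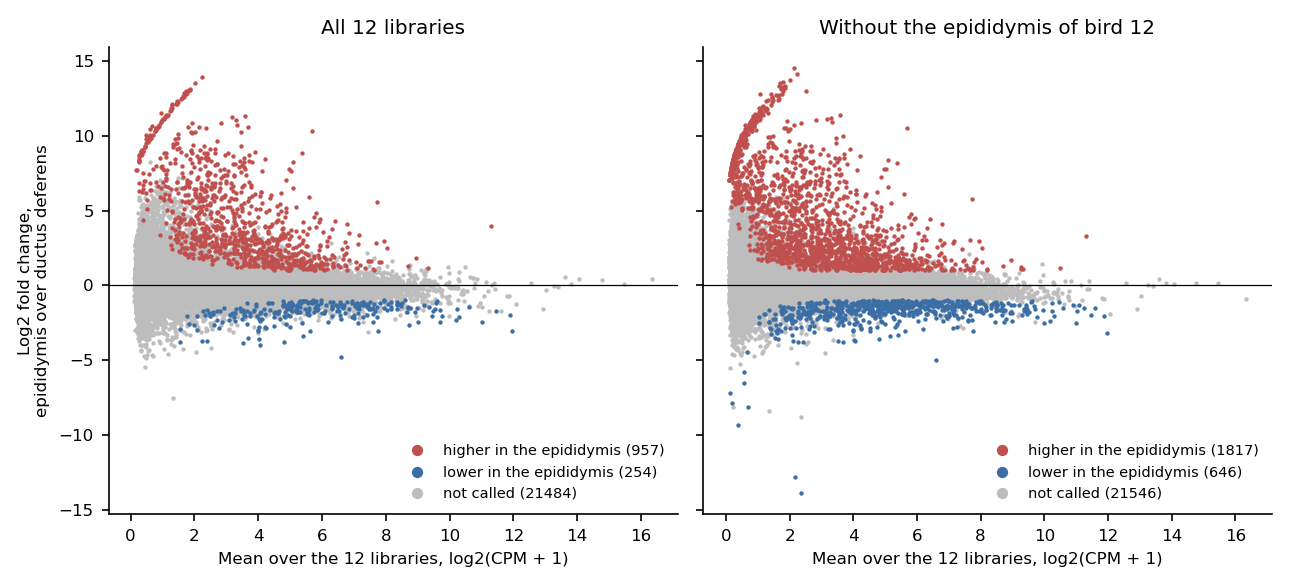
Log2 fold change (epididymis over ductus deferens) of each tested locus against its mean level over the 12 libraries, log2(CPM + 1), in the fit of all 12 libraries (left) and in the fit without the epididymis of bird 12 (right). Each point is a locus, coloured by its call, with 957 higher and 254 lower on the left and 1817 higher and 646 lower on the right. The streak of high fold changes at low levels holds loci with no count or almost none in the ductus deferens, whose fitted fold change depends on the prior count of the fit.

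The differences upwards were larger than those downwards and began from a lower level. Loci called higher had a median log2 fold change of 3.70, and 121 of them had at most 3 counts in each ductus deferens library. With these 121 set to the lower bound that 3 counts per library allow, the median was 3.63, and 769 of the 957 (80.4%) were beyond 2, 585 (61.1%) beyond 3 and 326 (34.1%) beyond 5. Loci called lower had a median of -1.65, with 67 of 254 (26.4%) beyond 2 in size, 14 (5.51%) beyond 3 and none beyond 5. The median level of the loci called higher was 27.9 CPM in the epididymis and 1.33 CPM in the ductus deferens. For the loci called lower it was 28.8 CPM in the epididymis and 76.0 CPM in the ductus deferens. The direction was the same in all 6 birds for 904 of the 957 loci called higher and for 241 of the 254 called lower, and the libraries of the ducts did not overlap in 838 and 156 of them (948 and 159 when the epididymis of bird 12 is set aside). Shared direction and lack of overlap follow in part from the call itself, also for the single loci below. The share of all loci tested without overlap is not given here. The fold sizes and levels of this paragraph, and the positions of the testis below, are those of the fit with all libraries.

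The sets differed in where the testis stood. Of the loci called higher in the epididymis, 205 (21.4%) had a testis median above both ducts, 241 (25.2%) below both and 511 (53.4%) between them. Of the loci called lower in the epididymis, 17 (6.69%) had a testis median above both ducts and 198 (78.0%) below both. Over all loci tested the shares were 35.3% above and 48.7% below. These are descriptions, since the positions of the ducts relative to each other were fixed by the call.

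Calls made from 5 birds were then looked up in the bird that had been left out, which the call had not used. Between 98.9% and 100% of the loci called higher kept their direction in birds 2, 11, 14, 15 and 16 when left out (for example 605 of 605 in bird 15 and 744 of 749 in bird 11). In bird 12 the share was 59.9% (1045 of 1746). Of the loci called lower, 100% kept their direction in birds 2 and 15, 97.5% in bird 14, 98.9% in bird 16 and 87.4% (160 of 183) in bird 11, against 80.3% (501 of 624) in bird 12. Both libraries of the bird were left out each time, and the loci looked up therefore differ from bird to bird. The share of all loci tested with each direction in each bird is not given here, so these shares have no baseline.

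**Figure D2:**
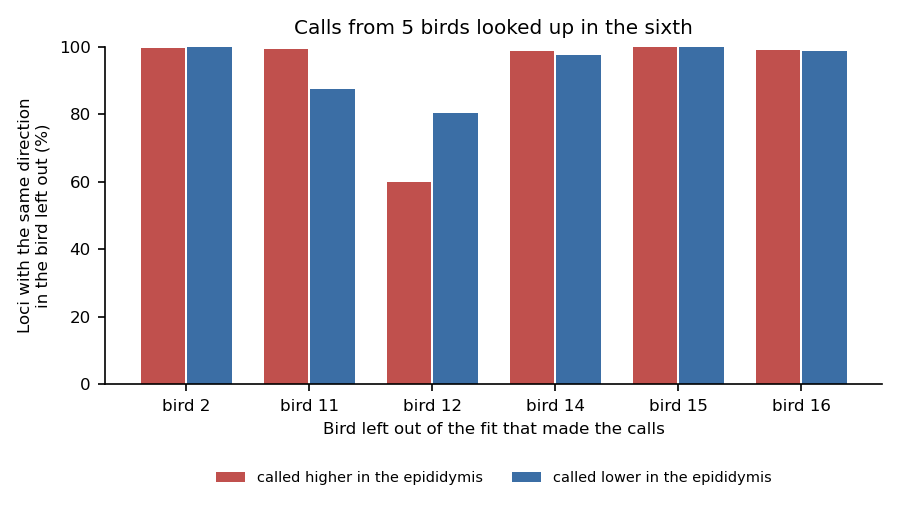
Share of loci, in percent, with the same direction in the bird left out as in the fit of the other 5 birds, for loci called higher (left bars) and lower (right bars) in the epididymis. For loci called higher, every bird lies at 98.9% or above except bird 12, at 59.9%.

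Ciliary loci, with their lists joined, formed the largest group among the named loci called higher in the epididymis. The lists of dynein arms, of the other axoneme and of centrioles and ciliary transport together held 23 matched loci, and 21 of them were called higher and none lower, against 4.22% of all loci tested that were called higher. Their median log2 fold change was 4.04, against 0.05 for all loci tested, and 22 of the 23 were taken from the study's own tables of this comparison. The counts called in each list below stand against the same shares of all loci tested, 4.22% higher and 1.12% lower. Summed over the 23 loci, the level was between 979 and 1491 CPM in the epididymides, between 70.1 and 120 CPM in the ductus deferentia and between 2212 and 3525 CPM in the testes. The 21 loci called were also called without the epididymis of bird 12, and 18 of them were called with the bird as a block. With the block and without that library, IQUB and RFX2 were not called (adjusted p = 0.0139 and 0.0157), and 20 of the 23 were called, TEKT3 being added.

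Among the dynein arms and their assembly factors 7 of 8 matched loci (27 listed) were called higher, and all 7 kept the call with the block. DNAH5, the heavy chain of the outer dynein arm, had between 86.6 and 407 CPM in the epididymis (median 128) and between 0 and 0.492 CPM in the ductus deferens (median 0.0171). No ductus deferens came near any epididymis, and the highest epididymis was that of bird 12, although it was the lowest epididymis for 6 of the other 7 loci of this list. The log2 fold change of DNAH5 was 10.61 (standard error, SE, 1.27, adjusted p = 0.000112) and 9.99 (SE 1.12, adjusted p = 9.82e-05) without the epididymis of bird 12. The 2 annotated DNAH5 transcripts present in the transcript counts together held 68.1% of the counts of the locus. Only the most abundant tested transcript was looked up, and it passed the edgeR test on the transcript table (log2 fold change 11.30, adjusted p = 0.000938).

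DNAH7, a heavy chain of the inner arm, had between 3.49 and 41.8 CPM in the epididymis (median 32.7) and between 0 and 1.03 CPM in the ductus deferens (median 0.425). The lowest epididymis was that of bird 12 and still lay above every ductus deferens. Its log2 fold change was 5.87 (SE 1.10, adjusted p = 0.00329), and the call was lost when the ductus deferens of bird 16 was left out (adjusted p = 0.0101). ARMC4, which docks the outer arms, had between 29.7 and 104 CPM in the epididymis (median 83.9) and between 0 and 0.647 CPM in the ductus deferens (median 0.200). LRRC6, needed to assemble the arms in the cytoplasm, had between 79.8 and 115 CPM in the epididymis (median 100.2) and between 0 and 0.985 CPM in the ductus deferens (median 0.246). For both, the ducts were far apart in every bird, with bird 12 the lowest epididymis for ARMC4 and the second highest for LRRC6.

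The remaining dynein loci differed less. DNAI1, an intermediate chain of the outer arm, ZMYND10, another assembly factor, and CCDC40, which sets the repeat of the inner arms along the doublets, had log2 fold changes of 4.04, 3.95 and 3.27. The annotated transcripts of CCDC40 and DNAI1, with 100% and 71.5% of the counts of their loci, passed the transcript test as well (log2 fold changes 3.27 and 3.58, adjusted p = 0.000171 and 0.00239 with edgeR). DNAAF5, a further assembly factor, was the locus of this list that was not called, with 8.02 to 27.3 CPM in the epididymis and 11.5 to 15.0 CPM in the ductus deferens. The epididymis of bird 12 was the only one of the 6 that lay within or below the range of the ductus deferens for DNAAF5, and its log2 fold change was 0.64 with this library (adjusted p = 0.151) and 0.77 without it (adjusted p = 0.00397), short of the limit of 1.

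**Figure D3:**
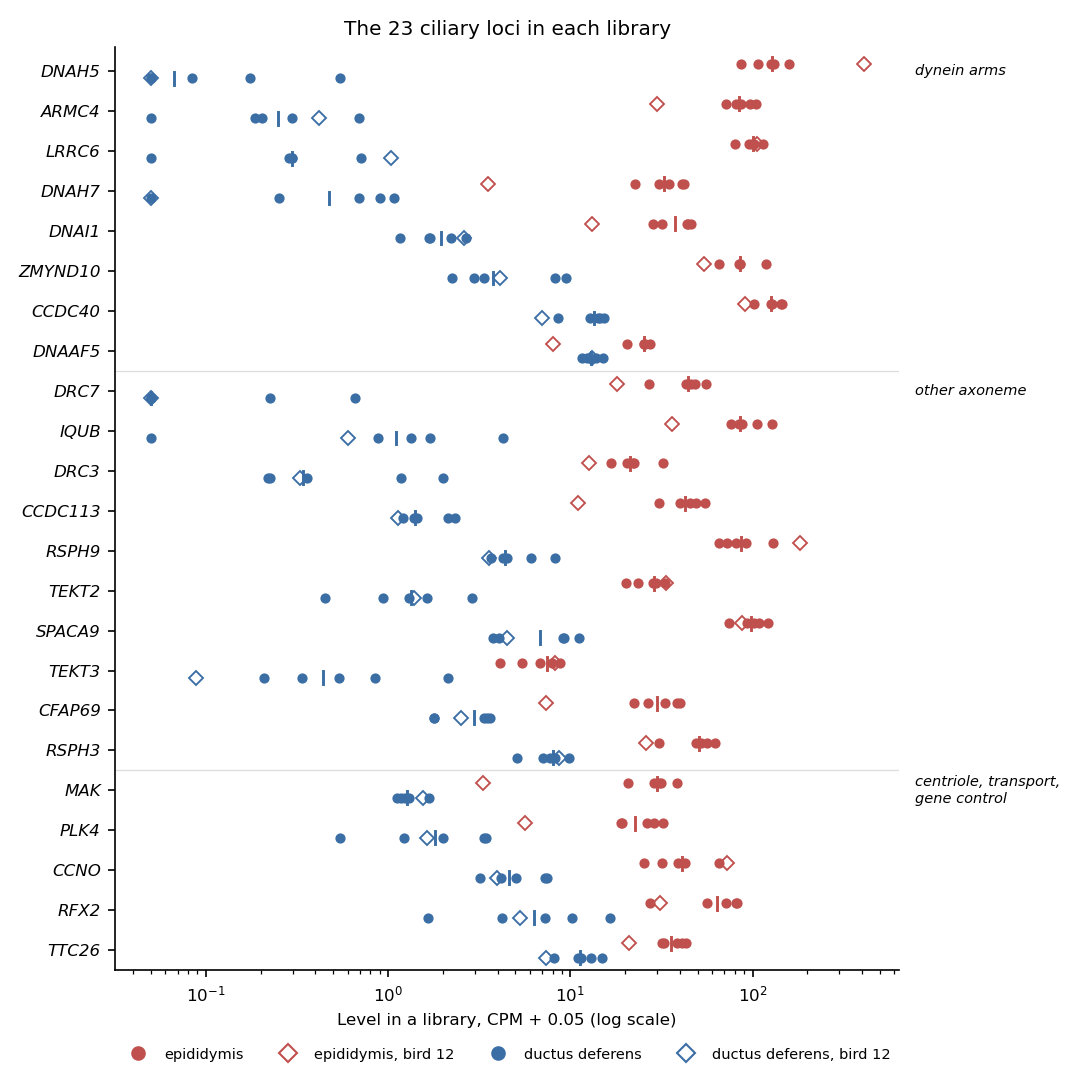
Level of the 23 ciliary loci in each of the 12 libraries, as CPM + 0.05 on a log scale, with the epididymis in the upper and the ductus deferens in the lower line of each locus. Filled points are birds 2, 11, 14, 15 and 16, open diamonds bird 12, and vertical ticks the median of 6. The ducts overlap in DNAAF5 alone, through the epididymis of bird 12.

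In the list of radial spokes, the dynein regulatory complex and the rest of the axoneme 9 of 10 matched loci (25 listed) were called higher. DRC7, a subunit of the complex that links neighbouring doublets and governs the dyneins, had between 18.1 and 55.6 CPM in the epididymis (median 44.4), and in the ductus deferens no count in 4 birds and 0.174 and 0.606 CPM in birds 11 and 15. Its log2 fold change was 8.11 (SE 1.29, adjusted p = 0.00096). DRC3, a subunit of the same complex, had between 12.7 and 32.4 CPM in the epididymis (median 21.3) and between 0.169 and 1.94 CPM in the ductus deferens (median 0.293). IQUB had between 35.9 and 128 CPM in the epididymis (median 85.8) and between 0 and 4.23 CPM in the ductus deferens (median 1.06).

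In all of these the epididymides lay above every ductus deferens. CCDC113 had between 11.0 and 54.5 CPM in the epididymis (median 42.7) and between 1.09 and 2.28 CPM in the ductus deferens (median 1.36), giving a log2 fold change of 4.52 ± 0.38 (SE) at an adjusted p of 8.07e-06. RSPH9 and RSPH3, proteins of the radial spoke, had log2 fold changes of 4.34 and 2.46, TEKT2, a tektin of the doublet wall, 4.28, SPACA9 3.75 and CFAP69 3.24. The tenth locus, TEKT3, another tektin, stood at 3.39 with an adjusted p of 0.0107 and was not called. Its ducts did not overlap, with 4.04 to 8.72 CPM in the epididymis and 0.0379 to 2.08 CPM in the ductus deferens. It was called without the epididymis of bird 12 (log2 fold change 3.24, adjusted p = 0.00701) and without the ductus deferens of bird 15 (adjusted p = 0.00274), and its adjusted p with edgeR or DESeq2 ranged from 1.09e-05 to 0.0557 over the alternatives tried.

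All 5 matched loci (15 listed) of centriole amplification, ciliary transport and ciliary gene control were called higher, with a median log2 fold change of 3.13. MAK, a kinase that restrains the length of cilia, had between 3.29 and 38.5 CPM in the epididymis (median 29.8) and between 1.07 and 1.62 CPM in the ductus deferens (median 1.22), giving a log2 fold change of 4.19 ± 0.46 (SE). PLK4, the kinase that starts centriole duplication, had between 5.58 and 32.3 CPM in the epididymis (median 22.7) and between 0.497 and 3.40 CPM in the ductus deferens (median 1.77). For both kinases the lowest epididymis was that of bird 12, and it lay above every ductus deferens.

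CCNO, a cyclin-like protein required for the many centrioles of multiciliated cells, had between 25.4 and 72.0 CPM in the epididymis (median 40.8) and between 3.15 and 7.42 CPM in the ductus deferens (median 4.55). Here bird 12 was the highest epididymis, and the single annotated transcript, which held all counts of the locus, passed the transcript test (log2 fold change 3.10, adjusted p = 0.00188 with edgeR). RFX2, a transcription factor of ciliary genes, had between 27.2 and 82.0 CPM in the epididymis (median 63.7) and between 1.61 and 16.4 CPM in the ductus deferens (median 6.25). With the bird as a block 3 of the 5 calls were lost, namely RFX2 (adjusted p = 0.0149), TTC26 (0.0111), a subunit of intraflagellar transport, and PLK4 (0.0101), while CCNO and MAK kept theirs.

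The testis showed that the ciliary loci did not share a ratio to it. Of the 21 ciliary loci called higher, 8 had a higher median in the 5 epididymides without bird 12 than in the testis. The epididymal median was 14.4% of that of the testis for TEKT2, 71.0% for DRC7 and 182% for LRRC6, whereas CCNO stood at 7030% and DNAH5 at 11000% (1.14 CPM in the testis). Of the 10 germ cell markers listed, 4 were matched, and their summed level was between 22.8 and 38.6 CPM in the epididymides, between 3.74 and 12.9 CPM in the ductus deferentia and between 382 and 859 CPM in the testes. HORMAD1, a protein of the meiotic chromosome axis, had medians of 8.31 CPM in the epididymis, 3.43 CPM in the ductus deferens and 316 CPM in the testis, and MEIOC, needed for meiotic prophase, had 0.726, 0 and 92.3 CPM in the same order and did not pass the filter. The other 2 matched markers stood closer to the testis, with epididymal medians without bird 12 at 27.5% of that of the testis for PCSK4 and 30.1% for SLC26A8, against 2.42% for HORMAD1 and 1.07% for MEIOC. The part of germ cells in the levels of the epididymis was not tested.

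Loci known from absorptive epithelia were another such group. All 8 matched loci (14 listed) of endocytosis and the brush border were called higher in the epididymis, against 4.22% of all loci tested. Their median log2 fold change was 5.26, and all 8 were called with the bird as a block and without the epididymis of bird 12. All 8 had been listed by the study for this comparison. Summed over the 8 loci, the level was between 871 and 2099 CPM in the epididymides (871 in bird 12 and at least 1134 in the others), between 124 and 179 CPM in the ductus deferentia and between 44.4 and 68.8 CPM in the testes.

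LRP2 (megalin), the large endocytic receptor of resorbing epithelia, had between 278 and 547 CPM in the epididymis (median 428) and between 0.303 and 4.36 CPM in the ductus deferens (median 1.15), giving a log2 fold change of 7.78 ± 0.71 (SE) at an adjusted p of 1.25e-05. HNF4A, a nuclear receptor of kidney, liver and gut epithelium, had between 35.8 and 233 CPM in the epididymis (median 125) and between 0.137 and 0.884 CPM in the ductus deferens (median 0.269), giving a log2 fold change of 8.26 ± 0.74 (SE) at an adjusted p of 1.12e-05. Neither locus overlapped between the ducts, and HNF4A set birds 2, 15 and 16 (188 to 233 CPM in the epididymis) apart from birds 11, 12 and 14 (35.8 to 62.4 CPM). The same 3 birds had the 3 highest epididymal levels of LRP2, PLA2G12B, CDHR2 and LGMN, with smaller gaps. The other 3 loci of the list did not share this order, with bird 12 highest for TMEM27 (126 CPM) and CREB3L3 (42.7 CPM) and bird 14 (82.9 CPM) above bird 16 (64.3 CPM) for KL. The likeness was noticed after the values were seen and was not tested. The annotated transcript held 0.216% of the counts of the HNF4A locus and 16.7% of those of LRP2.

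KL (klotho), the co-receptor of a phosphate-regulating hormone in the kidney, had between 3.22 and 89.6 CPM in the epididymis (median 73.6) and between 0 and 1.59 CPM in the ductus deferens (median 0.156). The value of 3.22 CPM was that of bird 12, and the other epididymides had 57.8 to 89.6 CPM. Its log2 fold change was 6.98 (SE 1.24, adjusted p = 0.00225), the call held with the block, and it was lost with the block and without the epididymis of bird 12 (adjusted p = 0.0104). PLA2G12B, a secretory phospholipase homologue involved in lipoprotein export in liver, had between 14.5 and 43.8 CPM in the epididymis (median 29.6) and between 0.248 and 0.758 CPM in the ductus deferens (median 0.434). Of the other members, CREB3L3, a transcription factor of liver and gut, had a log2 fold change of 4.60, CDHR2, a cadherin that joins the tips of microvilli, 3.91, TMEM27 (collectrin), a partner of amino acid transporters in the kidney brush border, 3.52 and LGMN, a lysosomal protease, 1.59.

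Transporters went both ways. Of 7 matched loci (15 listed) of water and solute transport, 4 were called higher in the epididymis, 1 was called lower and 2 were not called (median log2 fold change 1.48). The study had listed 6 of the 7 for this comparison, among them all that were called. With the bird as a block 1 was called higher and 2 lower, and without the epididymis of bird 12 it was 4 higher and 2 lower. SLC7A11, the cystine and glutamate exchanger, had between 11.4 and 47.2 CPM in the epididymis (median 36.7) and between 0 and 1.17 CPM in the ductus deferens (median 0.0285). AQP4, a water channel, had between 25.5 and 159 CPM in the epididymis (median 90.8) and between 0 and 3.99 CPM in the ductus deferens (median 2.64). Both were separated between the ducts in all birds, and the log2 fold change was 6.84 for SLC7A11 (SE 1.32, adjusted p = 0.00397) and 5.11 for AQP4 (SE 0.88, adjusted p = 0.00178).

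With the block the adjusted p was 0.0179 for SLC7A11 and 0.0227 for AQP4, so that neither was called, and SLC7A11 also lost its call without the epididymis or without the ductus deferens of bird 14 (adjusted p = 0.0104 and 0.0108). AQP9, a channel for water and glycerol, had a log2 fold change of 1.48 and an adjusted p of 0.000633, and 0.0137 with the block. P2RX2, an ATP-gated cation channel, had between 10.8 and 32.9 CPM in the epididymis (median 20.3) and between 0.840 and 3.20 CPM in the ductus deferens (median 2.33), giving a log2 fold change of 3.30 ± 0.43 (SE), and was called in both fits. The annotated P2RX2 transcript, with 5.58% of the counts of the locus, did not pass the transcript test (log2 fold change 0.39, adjusted p = 0.999 with edgeR).

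The locus of SLC15A1, the proton-coupled peptide transporter of gut and kidney, was called lower in the epididymis. It had between 11.2 and 70.1 CPM in the epididymis (median 29.1) and between 104 and 272 CPM in the ductus deferens (median 197). The ducts did not overlap, and bird 12 was the highest of the epididymides. Its log2 fold change was -2.45 (SE 0.46, adjusted p = 0.00332) and -2.94 (SE 0.38, adjusted p = 0.000136) without this library, and the call was lost without the epididymis of bird 2 or of bird 15 (adjusted p = 0.0111 and 0.0112). The annotated SLC15A1 transcript held 0.416% of the counts of the locus. It showed no difference in the transcript test (log2 fold change -0.34, adjusted p = 0.999 with edgeR).

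SLC34A2, a sodium-coupled phosphate transporter of epithelia, had the pattern of the SLC15A1 locus and was picked out after its values were seen. It had between 5.01 and 46.5 CPM in the epididymis (median 14.6) and between 60.5 and 129 CPM in the ductus deferens (median 91.4), with bird 12 again the highest epididymis and with no overlap. With all libraries it was not called (log2 fold change -2.18, adjusted p = 0.0139), while it was called with the block (-2.56, adjusted p = 0.00338) and without the epididymis of bird 12 (-2.76, adjusted p = 0.000525). Over the alternatives tried its log2 fold change was between -2.83 and -1.96 and its adjusted p between 0.000333 and 0.0717.

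The matched coagulation factors were all called higher in the epididymis, against 4.22% of all loci tested. The 4 matched loci (10 listed), of which the study had listed F3 and F5 for this comparison, had a median log2 fold change of 2.12, and their summed level was between 298 and 594 CPM in the epididymides and between 78.3 and 165 CPM in the ductus deferentia. F5 (coagulation factor V) had between 35.4 and 244 CPM in the epididymis (median 171) and between 2.28 and 32.8 CPM in the ductus deferens (median 6.96). Bird 12 gave both the lowest epididymis and the highest ductus deferens of F5, 35.4 and 32.8 CPM, and these nearly met. FGB, the fibrinogen beta chain, had between 28.5 and 87.7 CPM in the epididymis (median 45.8) and between 4.62 and 23.1 CPM in the ductus deferens (median 7.69).

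F3 (tissue factor), which starts coagulation, had between 106 and 235 CPM in the epididymis (median 172) and between 26.8 and 72.7 CPM in the ductus deferens (median 37.6). PROC (protein C), an anticoagulant protease, had between 71.1 and 116 CPM in the epididymis (median 103) and between 18.3 and 51.8 CPM in the ductus deferens (median 38.7). The log2 fold changes were 3.66 for F5, 2.35 for FGB, 1.90 for F3 and 1.39 for PROC, and none of the 4 overlapped between the ducts. The annotated transcripts of F5, F3 and PROC held 3.23%, 4.93% and 58.3% of the counts of their loci. None of these passed the transcript test (log2 fold changes 0.53, 3.43 and 0.92, adjusted p = 0.999, 0.475 and 0.382 with edgeR). F3 was the only one of the 4 called with the block (adjusted p = 0.00545, against 0.0195 for F5, 0.0196 for FGB and 0.0182 for PROC). The calls of FGB and PROC were lost in 8 and 9 of the 12 fits that left out a single library, with adjusted p up to 0.0148 and 0.0179. FGB and PROC are also the 2 matched members of the list of blood and liver markers, whose defining blood genes could not be matched to loci here, and the part of blood in these values was not tested.

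In the list of redox and small-molecule metabolism 4 of 8 matched loci (12 listed) were called higher and none lower, against 4.22% and 1.12% of all loci tested. These counts were the same in each of the fits with and without the block and the epididymis of bird 12. The 4 loci called were those that the study had listed for this comparison on these libraries, so their share is not independent evidence. CAT (catalase), which breaks down hydrogen peroxide, was the most abundant of these 4. It had between 535 and 899.8 CPM in the epididymis (median 727) and between 50.5 and 131 CPM in the ductus deferens (median 84.1), giving a log2 fold change of 2.99 ± 0.25 (SE) at an adjusted p of 8.07e-06. KMO, an enzyme of tryptophan breakdown, had between 7.99 and 87.2 CPM in the epididymis (median 71.5) and between 0.350 and 2.404 CPM in the ductus deferens (median 0.797). ASS1, which makes argininosuccinate on the way to arginine, had between 101 and 338 CPM in the epididymis (median 194) and between 3.20 and 28.0 CPM in the ductus deferens (median 10.8).

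No library of one duct reached into the range of the other for these 3 loci. The 2 annotated transcripts of ASS1 present in the transcript counts together held 62.6% of the counts of the locus. Only the most abundant tested transcript was looked up, and it passed the transcript test (log2 fold change 3.80, adjusted p = 0.00163 with edgeR). RDH10, which makes retinal from retinol, depended on bird 12 for its size. It had 146 CPM in the epididymis of bird 12 and 28.3 to 43.4 CPM in the others, against 4.50 to 17.0 CPM in the ductus deferens. Its log2 fold change was 2.60 (SE 0.52, adjusted p = 0.00501) and 1.87 (SE 0.32, adjusted p = 0.00108) without that library, and the call was lost without the ductus deferens of birds 11, 12, 14, 15 or 16 (adjusted p between 0.0113 and 0.0144). MT4, a metallothionein, was not called, and its log2 fold change had opposite signs with and without the epididymis of bird 12 (0.89 and -0.27), where it stood at 833 CPM against 57.8 to 230 CPM in the other epididymides and 95.4 to 214 CPM in the ductus deferens.

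**Figure D4:**
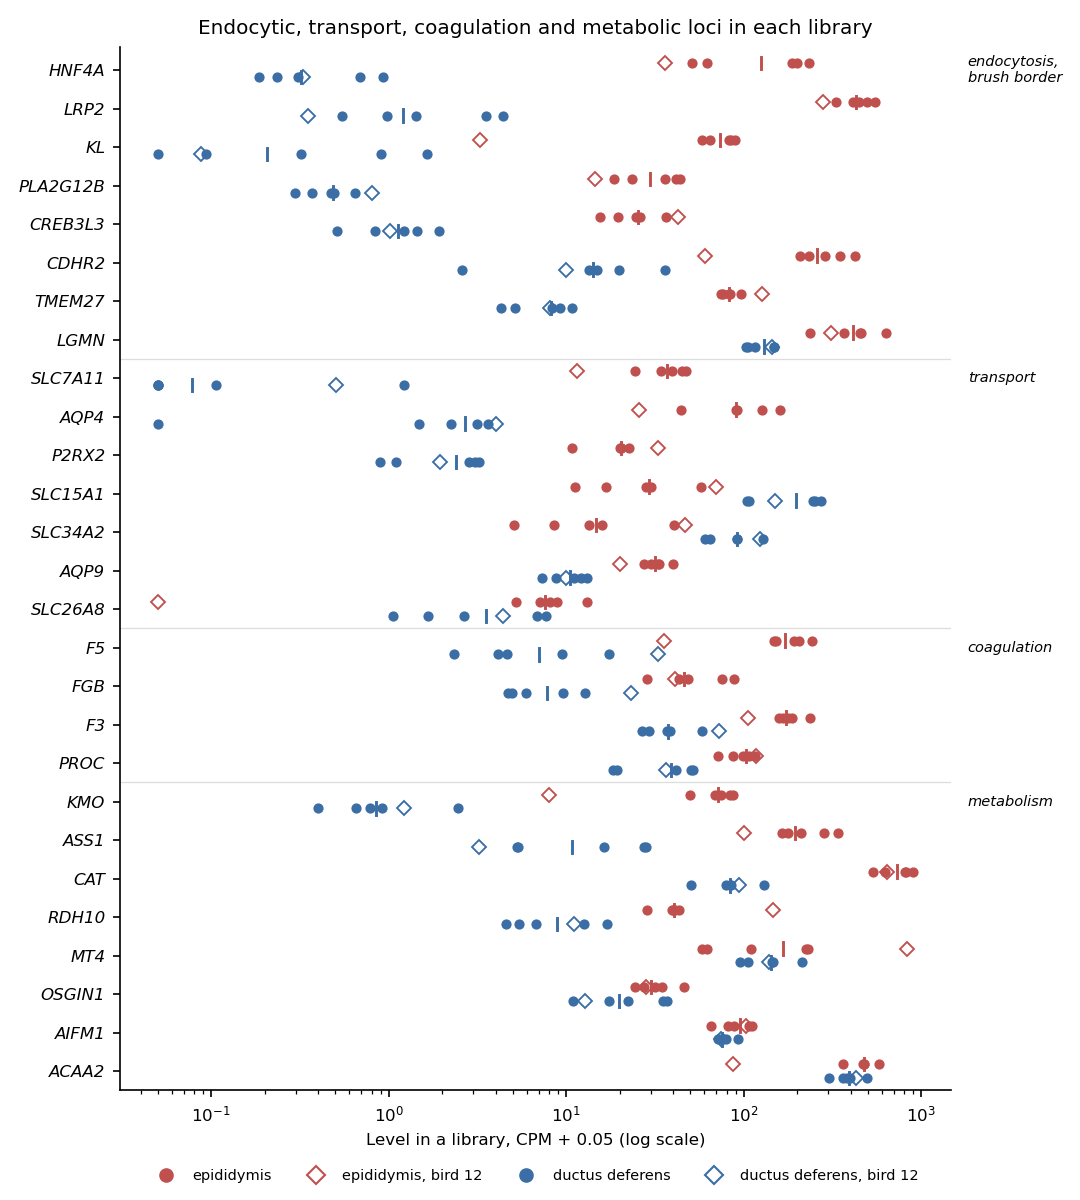
Level of the matched loci of endocytosis and the brush border, of transport, of coagulation and of metabolism in each of the 12 libraries, as CPM + 0.05 on a log scale, with the epididymis in the upper and the ductus deferens in the lower line of each locus. Filled points are birds 2, 11, 14, 15 and 16, open diamonds bird 12, and vertical ticks the median of 6. SLC15A1 and SLC34A2 are the only separated loci with the ductus deferens on the higher side.

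Of the 3 named loci called lower in the epididymis, 2 came from the list of adhesion, the basement membrane and the cytoskeleton, which held both directions. Of its 13 matched loci (18 listed), 3 were called higher in the epididymis, 2 lower and 8 were not called (median log2 fold change -0.16). Without the epididymis of bird 12 it was 3 higher and 4 lower. The loci called with all libraries were the 5 that the study had listed for this comparison. KRT19, a keratin of simple and duct epithelia, had between 8.49 and 50.9 CPM in the epididymis (median 18.2) and between 89.96 and 1039 CPM in the ductus deferens (median 538). Its lowest ductus deferens was that of bird 12, the others being at 506 CPM or above, and its highest epididymis was that of bird 11. The log2 fold change was -4.76 (SE 0.57, adjusted p = 0.000115), the most negative among the named loci, and it was called under all 29 alternatives tried. The annotated KRT19 transcript held 98.6% of the counts of the locus and passed the transcript test (log2 fold change -4.85, adjusted p = 0.00431 with edgeR). KRT19 had a median of 13.5 CPM in the testis, close to that of the epididymis.

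CORO1C, a coronin that binds actin filaments, had between 238 and 640 CPM in the epididymis (median 409) and between 749 and 1600 CPM in the ductus deferens (median 1042). The ducts did not overlap, and all 6 birds were lower in the epididymis. Its log2 fold change was -1.45 (SE 0.25, adjusted p = 0.00172), and it was not called with the block (adjusted p = 0.0137).

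CSRP1, a LIM protein abundant in smooth muscle, and LAD1, a protein of epithelial anchoring filaments, were named after their values were seen. CSRP1 had between 653 and 2060 CPM in the epididymis (median 1358) and between 1630 and 4353 CPM in the ductus deferens (median 3936), and it was the only 1 of 8 listed smooth muscle markers that could be matched. The ducts overlapped through bird 12 alone, which had the highest epididymis, 2060 CPM, and the lowest ductus deferens, 1630 CPM. It was not called with all libraries (log2 fold change -1.46, adjusted p = 0.0109) nor with the block (adjusted p = 0.0692), and was called without the epididymis of bird 12 (-1.74, adjusted p = 0.000671) and without the ductus deferens of bird 12 (-1.60, adjusted p = 0.00552). LAD1 had a log2 fold change of -1.01 (adjusted p = 0.0506) and was called without the epididymis of bird 12 (-1.20, adjusted p = 0.00951) and under no other of the 29 alternatives, over which its adjusted p ran up to 0.209.

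**Figure D5:**
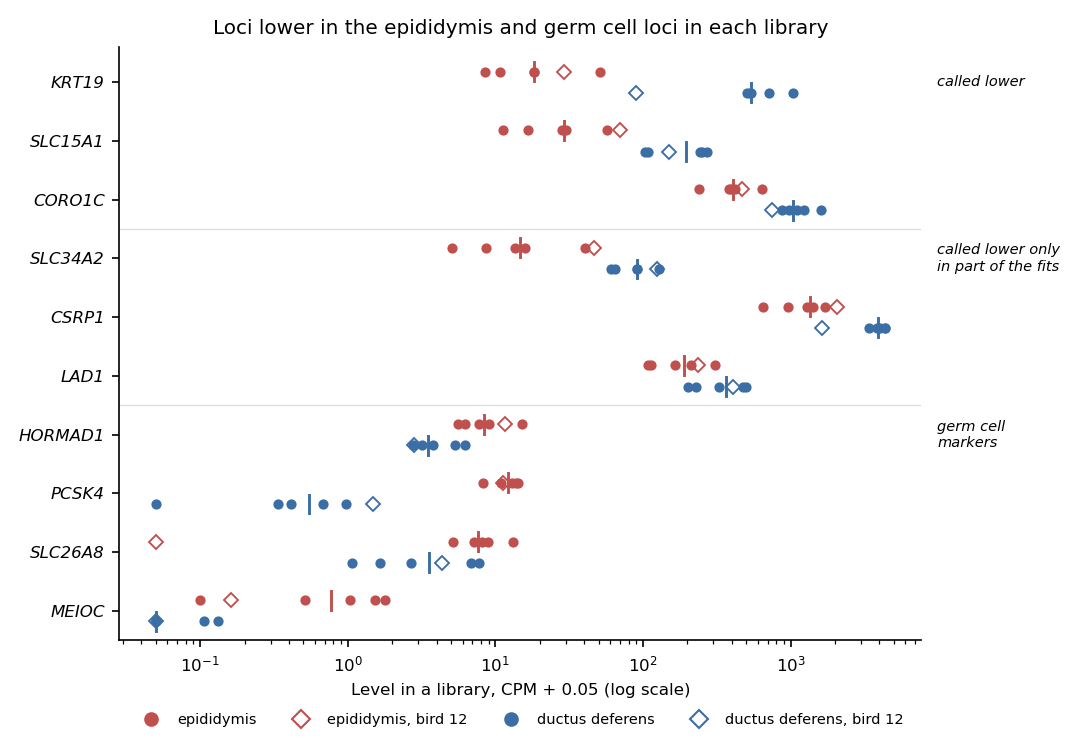
Level of 6 loci on the lower side in the epididymis and of the 4 matched germ cell markers in each of the 12 libraries, as CPM + 0.05 on a log scale, with the epididymis in the upper and the ductus deferens in the lower line of each locus. Filled points are birds 2, 11, 14, 15 and 16, open diamonds bird 12, and vertical ticks the median of 6. KRT19, SLC15A1, CORO1C and SLC34A2 do not overlap between the ducts, whereas CSRP1 overlaps through bird 12 and LAD1 through several birds.

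The 3 loci of this list called higher in the epididymis were adhesion molecules and a chaperone. CDHR3, a cadherin found on ciliated airway cells in humans, had between 3.04 and 45.8 CPM in the epididymis (median 38.7) and between 0.0435 and 0.518 CPM in the ductus deferens (median 0.395), with 3.04 CPM in bird 12 and 20.2 CPM or more in the others. CRYAB, a small heat shock protein, had between 37.0 and 74.6 CPM in the epididymis (median 45.6) and between 0.226 and 2.96 CPM in the ductus deferens (median 1.01). CDH20, a classical cadherin, had between 13.5 and 81.3 CPM in the epididymis (median 46.6) and between 0.768 and 6.09 CPM in the ductus deferens (median 2.24). Their log2 fold changes were 6.57, 5.14 and 3.93, without overlap between the ducts, and all 3 were called with the block. RHOA, ARPC5, MAP1LC3A, SEPT4 and SPTBN1 were not called, with log2 fold changes between -0.33 and 0.04.

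Among 8 matched loci (15 listed) of meiosis, cell division and the spermatid 3 were called higher, 4 were not called and MEIOC was not tested. The 3 called were those that the study had listed for this comparison. CLGN (calmegin), a chaperone known from spermatogenic cells of the mouse, had between 150 and 505 CPM in the epididymis (median 479) and between 10.7 and 34.5 CPM in the ductus deferens (median 18.9), with 150 CPM in bird 12 and at least 390 CPM in the others. PCSK4, a protease of germ cells in the mouse, had between 8.24 and 14.1 CPM in the epididymis (median 12.1) and between 0 and 1.43 CPM in the ductus deferens (median 0.496). NDC80, a kinetochore protein, had between 1.42 and 12.2 CPM in the epididymis (median 10.9) and between 0.137 and 0.768 CPM in the ductus deferens (median 0.495).

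The log2 fold changes were 4.32 for CLGN (SE 0.37), 4.20 for PCSK4 (SE 0.81) and 4.18 for NDC80 (SE 0.58). CLGN kept its call with the block, whereas PCSK4 and NDC80 did not (adjusted p = 0.0244 and 0.0141), and PCSK4 also lost it in 4 of the 12 fits without a single library (adjusted p up to 0.0119). The 3 loci differed in their relation to the testis. The epididymal median without bird 12 was 768% of that of the testis for CLGN, 27.5% for PCSK4 and 30.1% for NDC80. HORMAD1 and the mitotic kinesins KIF18A and KIF18B, which stood at 2.42%, 2.42% and 3.83% of the testis, were not called between the ducts (log2 fold changes 1.14, 2.44 and 0.98).

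In the list of signalling and protein turnover 2 of 12 matched loci (12 listed) were called higher and none lower (median log2 fold change -0.29), and 3 were called higher without the epididymis of bird 12. ITM2C, an integral membrane protein, had between 181 and 352 CPM in the epididymis (median 232) and between 12.5 and 45.9 CPM in the ductus deferens (median 14.6), giving a log2 fold change of 3.56 ± 0.36 (SE). NDRG1, a stress-responsive protein, had between 522 and 961 CPM in the epididymis (median 636) and between 210.0 and 315 CPM in the ductus deferens (median 271), with an adjusted p of 0.000452. Both were separated between the ducts and called with the block. The receptor FGFR1 and 9 further loci were not called, with log2 fold changes between -1.11 and 0.89, so that these loci, all listed by the study for comparisons with the testis only, showed no difference past the threshold between the ducts.

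Over the 83 named loci, 49 were called higher, 3 lower (KRT19, CORO1C and SLC15A1), 30 were not called and 1 was not tested. All 52 calls were also made without the epididymis of bird 12, where 5 more were made (TEKT3 and IVNS1ABP higher, SLC34A2, CSRP1 and LAD1 lower). With the block and without that library the calls of AQP4, IQUB, KL, PROC and RFX2 were lost (adjusted p between 0.0104 and 0.0163) and those of CSRP1, IVNS1ABP, SLC34A2 and TEKT3 were gained. With the block and all libraries 12 calls were lost and SLC34A2 was gained. The lost calls were those of AQP4, AQP9, CORO1C, F5, FGB, NDC80, PCSK4, PLK4, PROC, RFX2, SLC7A11 and TTC26, with adjusted p between 0.0101 and 0.0244. The epididymis of bird 12 was the lowest of the 6 in 31 of the 49 loci called higher and the highest in 9. Of the named loci, 7 were below 10% of the median of the other epididymides in this library (among them CDHR3, KIF18A, KL, RNF2, SEPT4 and SLC26A8) and none was above 10 times that median. Of the 31 named loci that the study had not listed for this comparison, 2 were called (FGB and PROC), 6.67% of the 30 tested, against 5.34% of all loci.

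Loci without a symbol made up the rest of the 1211 calls. By a fixed rule the most extreme of those with the same direction in all birds are given. MSTRG.37622 had between 76.0 and 209.8 CPM in the epididymis (median 144) and between 0 and 0.126 CPM in the ductus deferens (median 0.0458), giving a log2 fold change of 11.32 ± 0.76 (SE). MSTRG.1958 had between 50.8 and 104 CPM in the epididymis (median 82.8), while in the ductus deferens only bird 15 had counts (0.164 CPM), giving a log2 fold change of 11.24 ± 1.08 (SE). Over the fits without a single library this fold change ranged from 10.97 to 15.7, so its size is poorly fixed. Both were called with the block, and both had low testis medians of 1.22 and 3.89 CPM.

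On the other side, MSTRG.44729 had between 0 and 7.18 CPM in the epididymis (median 4.69) and between 20.2 and 90.3 CPM in the ductus deferens (median 67.3), giving a log2 fold change of -3.96 ± 0.80 (SE) at an adjusted p of 0.00525. Bird 12 had no count of it in the epididymis, and the call was lost with the block (adjusted p = 0.0556) and in 10 of the 12 fits without a single library. MSTRG.4071 had between 1.42 and 5.40 CPM in the epididymis (median 3.18) and between 3.49 and 90.2 CPM in the ductus deferens (median 42.0), with the lowest ductus deferens again that of bird 12 and a log2 fold change of -3.86 (SE 0.61, adjusted p = 0.000932, and 0.0115 with the block).

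The study listed 25 long non-coding RNA loci as differing between these ducts, all chosen on these libraries. Of these 25, 23 passed the filter and all 23 were called higher in the epididymis, 19 of them with the bird as a block, and without the epididymis of bird 12 all 25 were tested and called. The loci that carry the symbols AQP9 (MSTRG.13098, chromosome 12, 6743512 to 6771931), DRC7 (MSTRG.14095, chromosome 13, 2475764 to 2495102) and CLGN (MSTRG.34831, chromosome 4, 10020220 to 10038081, all in coordinates of the genome version to which the authors mapped) are among them, so that these 3 identifiers stand in the tables as long non-coding RNAs and as named genes.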

How the data were processed

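Trimming was done with Trimmomatic 0.38 and alignment with STAR against version 2.01 of the turkey genome (annotation 2.01.91). StringTie then built 1 merged set of transcripts for all samples, and the authors deposited raw counts for its genes and transcripts, without normalization. The counting tool and its use of strand are not given in the sources used here, so overlapping and antisense loci are uncertain. Counts per locus were tested with edgeR 4.0.16 in R 4.3.3 (TMM, the low-count filter of edgeR, robust quasi-likelihood fit, Benjamini-Hochberg adjustment over all loci tested) on the 12 duct libraries, and the transcript counts went through the same steps. The SE is the size of the log2 fold change over the root of F. CPM used the TMM factors of all 18 libraries. A floor of 3 counts was between 0.0289 and 0.0676 CPM in the ducts, and it covers counting error only.

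The thresholds (adjusted p under 0.01, log2 fold change beyond 1) follow the study, which does not state a block. Same-numbered libraries come from the same bird. Deviations from the tissue means correlated at 0.0843 on average between the ducts of the same bird (-0.12 in bird 14 to 0.226 in bird 16) and at -0.0105 between birds. Fits that block on the bird are therefore given beside the results that they change. P-values of the fits without the block measure the spread between the libraries of a tissue and leave out the pairing by bird. Those of the fits with the block measure the spread of the differences between the ducts of a bird.

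Loci and lists were chosen with earlier results of these data known. Values per library were given for at most 4 loci per list, those with the largest fold change among the called, and for every named locus called lower. The rule also took unnamed loci (the 2 highest and the 2 lowest fold changes with the same direction in all birds and over 3 counts in a library of the lower tissue) and, for the epididymis of bird 12, named loci below 10% or over 10 times the median of the others. DNAAF5, TEKT3, CREB3L3, TMEM27, HORMAD1, MEIOC, MT4, SLC34A2, CSRP1, LAD1 and MSTRG.50983 were given values in the text outside this rule, after these had been seen. Values of AIFM1, ARHGEF16 and IVNS1ABP are given because the search for outlying libraries flagged them. Some loci are not reported here. Alternatives were other size factors, DESeq2 1.42.0, no filter, all 3 tissues in one fit, other thresholds, the block and each library left out. Leaving out both libraries of a bird, and scaling by library size together with the block or without the epididymis of bird 12, were added after seeing the data. Steps were tested on simulated data. Software for tables and figures was pandas 2.3.3, numpy 2.4.6, scipy 1.17.1 and matplotlib 3.10.9 under Python 3.11.15.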

Additional observations from a re-analysis of the deposited data

Results flagged for a closer look

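A library that lay far from the other 5 of its tissue was looked for in 178 groups of 6 values, those of the loci reported and of 3 measures per library by Dixon's ratio. For normally distributed values, chance alone gives such a value in about 1 in 20 groups. CPM were not put on a log scale for this search, so that rate need not hold here. Low values are also harder to flag without a log scale. CDHR3 in the epididymis of bird 12 (3.04 CPM, against 20.2 to 45.8 CPM in the others) was not flagged. The number found was 20, of which 12 were in the epididymis of bird 12, 3 in the ductus deferens of bird 15, 2 in that of bird 14, and 1 each in the ductus deferens of birds 2, 11 and 12. Causes were not tested.

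In the epididymis of bird 12 the values above the other epididymides were DNAH5 (407 CPM, against 86.6 to 159 CPM), RDH10 (146, against 28.3 to 43.4 CPM), MT4 (833, against 57.8 to 230 CPM) and MSTRG.50983 (448411, against 49279 to 66843 CPM). Those below them were CLGN (150, against 390 to 505 CPM), DNAAF5 (8.02, against 20.3 to 27.3 CPM), IVNS1ABP (86.3, against 215 to 241 CPM), KL (3.22, against 57.8 to 89.6 CPM), NDC80 (1.42, against 8.51 to 12.2 CPM) and RNF2 (0, against 3.71 to 5.83 CPM). The share of counts taken by the 10 most abundant loci was 45.02%, against 19.18% to 28.23% in the other epididymides, and that of the most abundant locus was 30.89%, against 5.308% to 6.87%.

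In the ductus deferens the values far from the others were those of CSRP1 in bird 12 (1630, against 3377 to 4353 CPM), ITM2C in bird 2 (45.9, against 12.5 to 16.6 CPM) and DNAH5 in bird 11 (0.492, against 0 to 0.124 CPM). In bird 14 they were AIFM1 (93.0, against 71.7 to 79.1 CPM) and ARHGEF16 (500.0, against 232 to 312 CPM). In bird 15 they were DRC7 (0.606, against 0 to 0.174 CPM), TEKT3 (2.08, against 0.0379 to 0.801 CPM) and MSTRG.1958 (0.164 CPM, against 0 in the others). The 2 ciliary loci DRC7 and TEKT3 stayed below the lowest epididymis in this bird as well.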

How the results depend on the processing

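The alternatives were followed for 61 loci. These are the named loci called with all libraries or without the epididymis of bird 12, and the 4 without a symbol given by the fixed rule. Other named loci, none of them called in these 2 fits, were not followed over all alternatives. Among the 61, none that was called changed its sign under an alternative. Over all 1211 calls this was counted only for the fit without the epididymis of bird 12. The number of loci called in the epididymis against the ductus deferens was 1211 (957 higher, 254 lower). It moved by over 1.5 times with the replicate block, which pairs the ducts of a bird (626, with 487 higher and 139 lower), with DESeq2 (2220, with 1613 higher and 607 lower) and with an adjusted p under 0.05 (2009, with 1465 higher and 544 lower). Scaling by library size alone moved the number of lower loci to 148 and the share of higher calls to 86.0%, and the epididymis of bird 12 left out with the block in place moved the lower loci to 485. Over the fits without a single library the number called ranged from 860 to 2463, that of higher loci from 748 to 1817 and that of lower loci from 109 to 646, each highest without the epididymis of bird 12. Over the fits without both libraries of a bird, added after seeing the data, the number called was 673, 932, 2370, 780, 669 and 690 without birds 2, 11, 12, 14, 15 and 16, with 601, 749, 1746, 659, 605 and 601 higher and 72, 183, 624, 121, 64 and 89 lower. Of the other added settings, the block with library size alone gave 424 (368 higher, 56 lower), and library size alone without the epididymis of bird 12 gave 2485 (2164 higher). The other settings stayed within 1.5 times. Among the 61 loci followed, which include the 4 without a symbol, the block left 46 calls as they were and changed no call beyond those named. With the annotated transcript in place of the locus, 9 of 29 kept their side of the threshold, among them loci that were not called in the first place. Of the 26 called loci with a tested annotated transcript, 6 kept the call and 20 were no longer past the threshold, with no change of sign. Among these 20 the log2 fold change of the transcript was much smaller than that of the locus in P2RX2 (0.39 against 3.30), F5 (0.53 against 3.66) and SLC15A1 (-0.34 against -2.45). It was larger in others, such as CDHR2 (6.73 against 3.91) and TEKT2 (6.70 against 4.28). In the ductus deferens, loci without a count lie under the floor of 3 counts, so that expression below it was not detectable at this depth.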
